A study of Mus musculus with 10 samples.

Results

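The genes described here are 38 members of the unfolded protein response and the secretory pathway, chosen by name as known parts of the machinery that folds, checks and exports proteins at the endoplasmic reticulum. All 38 had a probe set carrying their symbol alone, among 19935 genes measured in that way, and 37 passed a filter on dim probe sets, among 15815 genes tested. Only Agr2 did not pass. RNA was measured on 10 Affymetrix arrays of mammary epithelial cells sorted from virgin female mice aged 8 to 12 weeks, which were littermates. SSKO MaSCs (3 arrays) were mammary stem and basal cells of Pygo2-null mice, sorted as Lin-, CD29 high and CD24+; the labels do not spell out SSKO, nor the promoter that drives the deletion. Control Luminal cells (3 arrays) were mature luminal cells of control mice, sorted as Lin-, CD29 low, CD24+ and CD61-. Control MaSCs (4 arrays) had the basal sort of the SSKO cells and the control genotype. Lin stands for CD31, CD45 and TER119, markers of endothelial and blood cells, and SSKO luminal cells were not analysed here. The sample titles call each array a biological replicate, without saying how many animals went into it, and a p-value speaks of the spread among these replicates.

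The unfolded protein response is set off when client proteins accumulate in the endoplasmic reticulum. Its 3 membrane sensors are IRE1 (encoded by Ern1), PERK (Eif2ak3) and ATF6 (Atf6), which act through splicing of Xbp1 RNA, translation of ATF4 and release of a transcription factor from the membrane. Their targets are chaperones, disulfide isomerases, the degradation machinery and the coat proteins of secretory vesicles, and mammary epithelium relies on this system when it secretes milk.

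Many chaperone genes carry the endoplasmic reticulum stress response element (ERSE), in which CCAAT is followed after 9 bases by CCACG, and which ATF6 and XBP1 are known to bind. A RefSeq promoter window of GRCm38.p6, from 250 bases before to 50 bases after the start of transcription, was found for 32 of the 38 members. Atf6, Creb3l1, Derl1, Ern2, Manf and Sec61a1 had no entry. ERSE, searched on both strands, stood in the windows of 8 of the 32 (25%), namely Calr, Canx, Derl3, Dnajc3, Hsp90b1, Hspa5, Pdia6 and Syvn1, and in 39 of 32851 windows of all genes (0.119%). ERSE-II, in which ATTGG is followed after 1 base by CCACG, stood in Herpud1 and Dnajb11 and in 0.0365% of all windows. The parts of these motifs were more frequent, with CCAAT alone in 27 of the 32 members against 37.4% of all windows and CCACG alone in 24 of the 32 against 32.8%. TGACGTGG, known as an XBP1 and ATF6 site, was in the window of Sec24d and in 0.676% of all windows, TGACGTCA in no member and in 1.79%, and TGATGNAA, known as a site of ATF4 with its partners, in Herpud1 and in 3.97%. A match describes the letters and does not show binding. The sequences below belong to members that differ in how they behaved in the data, and each reads 5′ to 3′ along the strand of its gene. Hspa5, Pdia6, Dnajc3 and Calr show ERSE in capitals, Herpud1 shows ERSE-II in capitals, and Eif2ak3 and Sdf2l1, which hold no ERSE, show each CCAAT of either strand in capitals. They lie at chr2:34771840-34772089, plus strand (Hspa5), chr12:17266471-17266529, plus strand (Pdia6), chr14:118937807-118937865, plus strand (Dnajc3), chr8:84847055-84847113, minus strand (Calr), chr8:94386357-94386407, plus strand (Herpud1), chr6:70844265-70844514, plus strand (Eif2ak3) and chr16:17132384-17132633, minus strand (Sdf2l1).
Hspa5: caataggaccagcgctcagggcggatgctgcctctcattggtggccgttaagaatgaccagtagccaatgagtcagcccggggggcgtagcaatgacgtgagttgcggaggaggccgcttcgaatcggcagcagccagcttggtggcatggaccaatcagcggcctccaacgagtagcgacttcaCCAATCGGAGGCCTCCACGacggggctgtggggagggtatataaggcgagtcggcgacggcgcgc
Pdia6: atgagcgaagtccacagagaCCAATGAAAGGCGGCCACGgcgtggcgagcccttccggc
Dnajc3: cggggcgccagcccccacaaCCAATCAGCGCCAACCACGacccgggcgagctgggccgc
Calr: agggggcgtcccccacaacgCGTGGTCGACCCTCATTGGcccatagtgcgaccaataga
Herpud1: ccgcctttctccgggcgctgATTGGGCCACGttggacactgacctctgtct
Eif2ak3: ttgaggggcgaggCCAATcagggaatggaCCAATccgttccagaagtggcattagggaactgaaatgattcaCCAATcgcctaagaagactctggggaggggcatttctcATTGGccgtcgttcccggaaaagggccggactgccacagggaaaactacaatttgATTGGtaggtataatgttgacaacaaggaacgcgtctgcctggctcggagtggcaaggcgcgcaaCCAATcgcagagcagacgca
Sdf2l1: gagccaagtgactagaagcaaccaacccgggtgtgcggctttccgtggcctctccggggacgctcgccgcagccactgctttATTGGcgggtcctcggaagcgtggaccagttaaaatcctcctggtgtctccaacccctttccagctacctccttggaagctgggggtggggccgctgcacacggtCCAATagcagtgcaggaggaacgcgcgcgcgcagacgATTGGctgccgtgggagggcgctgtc

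All levels below are log2(intensity + 16) of 1 probe set per gene, and a difference of 1 on this scale is a 2-fold change, understated for dim genes. Pygo2 had levels of 6.99, 5.94 and 5.86 in SSKO MaSCs, 8.5, 7.9 and 8.53 in control Luminal cells and 8.3, 9.09, 8.11 and 8.91 in control MaSCs. It was lower in SSKO than in control MaSCs by a log2 difference of -2.34 (SE 0.32, limma adjusted p = 0.0441), and where its probes lie relative to the deletion was not determined. Pygo2 was the single gene called lower in SSKO MaSCs, and its mean there, 6.26, lay under the filter cut of 6.74. The call did not hold in every alternative setting. No gene was called lower with quantile normalization, with a replicate block or in the fit of the 2 groups alone. None was called lower without control MaSC array 1, 2 or 4, SSKO array 2 or 3, or Luminal array 1 or 3. For basal and luminal markers the sorts matched their labels: 9 of 9 basal markers were lower in Luminal cells (median log2 difference -4.28) and 8 of 8 tested mature luminal markers were higher (median 3.15). In SSKO MaSCs the mature luminal list averaged 0.56, 0.40 and 0.74 above the control MaSC mean, against -0.27, 0.02, 0 and 0.26 in the control MaSC arrays, so the groups did not overlap. How often genes or lists separate in this way was not counted, so the separation is not a result about this list. Of its 8 genes Cited1 was called higher in SSKO MaSCs (log2 difference 1.56, limma adjusted p = 0.0103), beside uncalled differences of 1.44 in Krt19 and 1.11 in Foxa1. The rest of the list, also uncalled, differed by 0.39 in Krt18, 0.26 in Pgr, 0.1 in Krt8, 0 in Gata3 and -0.34 in Esr1. Among the basal markers, 0 of 9 was called. Luminal array 3 stood apart. Its basal keratin Krt5 was at 11.68, against 9.06 and 7.7 in the other Luminal arrays, and without it the same 18 members described below were called with the same sign. Endothelial markers were brighter in SSKO arrays 1 and 3 (means of 1.90 and 0.92 above the control MaSC mean, on the log2 scale) and in control MaSC array 1 (0.99) than in the other 7 arrays. Among them Pecam1, the gene of CD31, read 11.31, 8.32 and 10.41 in SSKO MaSCs and 10.34, 8.31, 9.27 and 8.87 in control MaSCs. It read 8.79, 8.51 and 8.35 in Luminal cells and was called in neither comparison. All sorts are labelled Lin-, and the source of this signal was not tested.

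**Figure D1:**
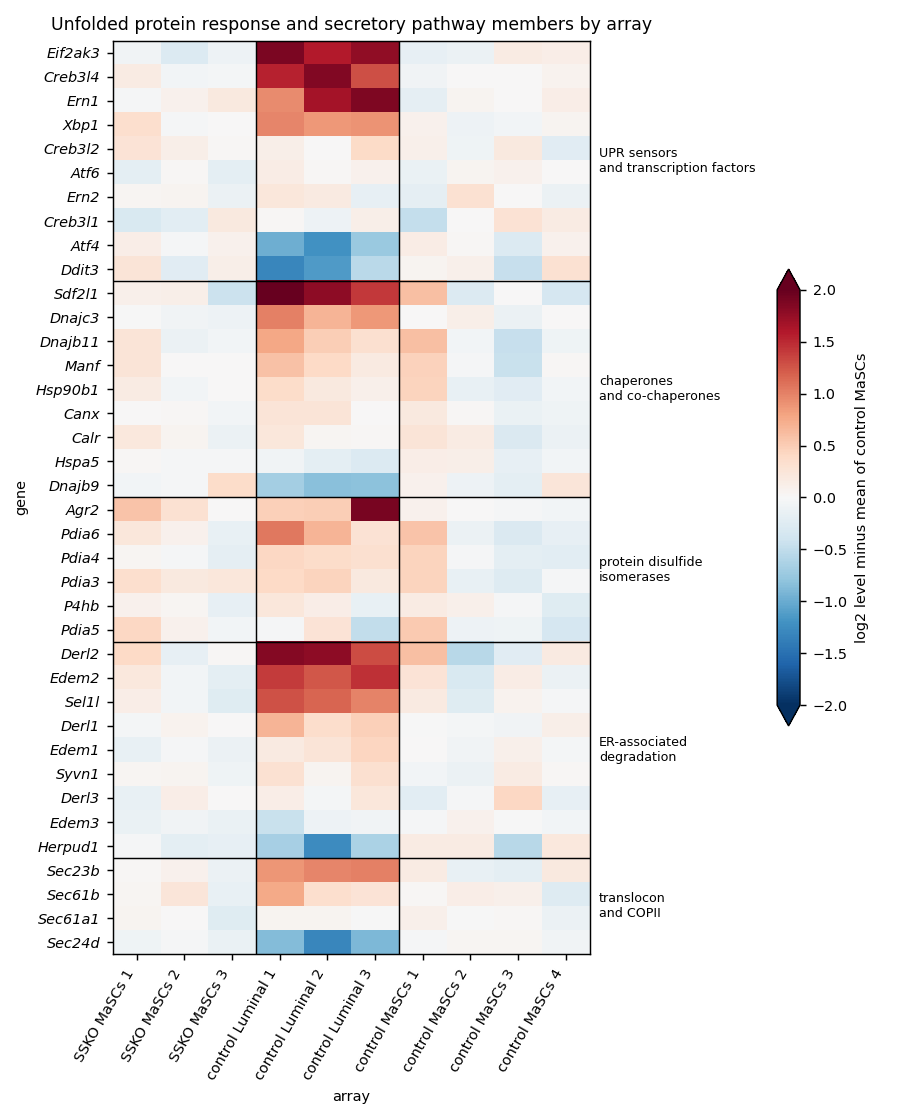
Level of each of the 38 members in each of the 10 arrays (columns: SSKO MaSCs, control Luminal, control MaSCs), as the log2 difference from the mean of the 4 control MaSC arrays, with members grouped by role down the page; colours end at 2 in both directions. The SSKO columns stay pale, while Sdf2l1, Eif2ak3, Derl2, Creb3l4 and Ern1 are higher in all 3 Luminal arrays and Sec24d, Ddit3, Atf4, Herpud1 and Dnajb9 are lower.

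The comparison of SSKO with control MaSCs asks what loss of Pygo2 does to basal cells, and no member passed the test in it. None of the 37 tested members passed an adjusted p of 0.05 in limma, none had an unadjusted p under 0.05, and the background was 6 of 15815 genes (0.0379% called, 479 at an unadjusted p under 0.05). The members' log2 differences ran between -0.15 and 0.26, with a median of 0 against 0.01 over all genes, and 17 of the 37 were positive. By role, the medians were 0.03 for sensors and transcription factors, 0.03 for chaperones, 0.05 for disulfide isomerases, -0.02 for degradation genes and -0.03 for the translocon and vesicle coat.

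Pdia3, a disulfide isomerase that works on glycoproteins, had the smallest p. Its levels were 12.2, 12.06 and 12.09 in SSKO MaSCs, against 12.3, 11.71, 11.6 and 11.83 in control MaSCs, a log2 difference of 0.26 (SE 0.16, limma adjusted p = 1, and 0.139 before adjustment). The brightest Pdia3 array was a control array, so the groups overlapped. Next came the PERK gene Eif2ak3, with 7.96, 7.76 and 7.93 in SSKO MaSCs against 7.86, 7.91, 8.19 and 8.17 in control MaSCs, a log2 difference of -0.15 (SE 0.13). Creb3l2, a membrane-bound transcription factor of the ATF6 type, read 11.25, 11.1 and 11.01 in SSKO MaSCs and 11.08, 10.89, 11.18 and 10.76 in control MaSCs (log2 difference 0.14, SE 0.14). Atf6 itself read 11.05, 11.27 and 11.06 in SSKO MaSCs and 11.11, 11.31, 11.33 and 11.26 in control MaSCs (log2 difference -0.12, SE 0.11). In each of these 3 genes the ranges of the groups overlapped. Edem3, which acts in trimming mannose from misfolded glycoproteins, was the single tested member whose groups did not overlap, at 10.22, 10.28 and 10.22 in SSKO MaSCs and 10.32, 10.43, 10.34 and 10.29 in control MaSCs. Its log2 difference of -0.11 (SE 0.12, limma unadjusted p = 0.393) did not pass the test, and it is named here after its values were seen. The share of all genes whose groups separate in this way was not counted, so the separation is not a result about Edem3.

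The arrays limit how small a change could have been seen. The 95% intervals of the 37 differences, each taken for its gene alone, lay between -0.66 and 0.65, or 0.632-fold to 1.57-fold. For 26 members the interval stayed within 0.5 of 0 on both sides, and for 5 within 0.3. The intervals of Ern1, Ddit3, Creb3l1, Dnajb11, Manf, Sdf2l1, Pdia3, Pdia5, Pdia6, Herpud1 and Derl2 reached past 0.5. For the BiP gene Hspa5, the master chaperone of the compartment, the levels were 13.11, 13.05 and 13.05 in SSKO MaSCs and 13.21, 13.19, 12.92 and 13.02 in control MaSCs, with an interval of -0.27 to 0.24.

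**Figure D2:**
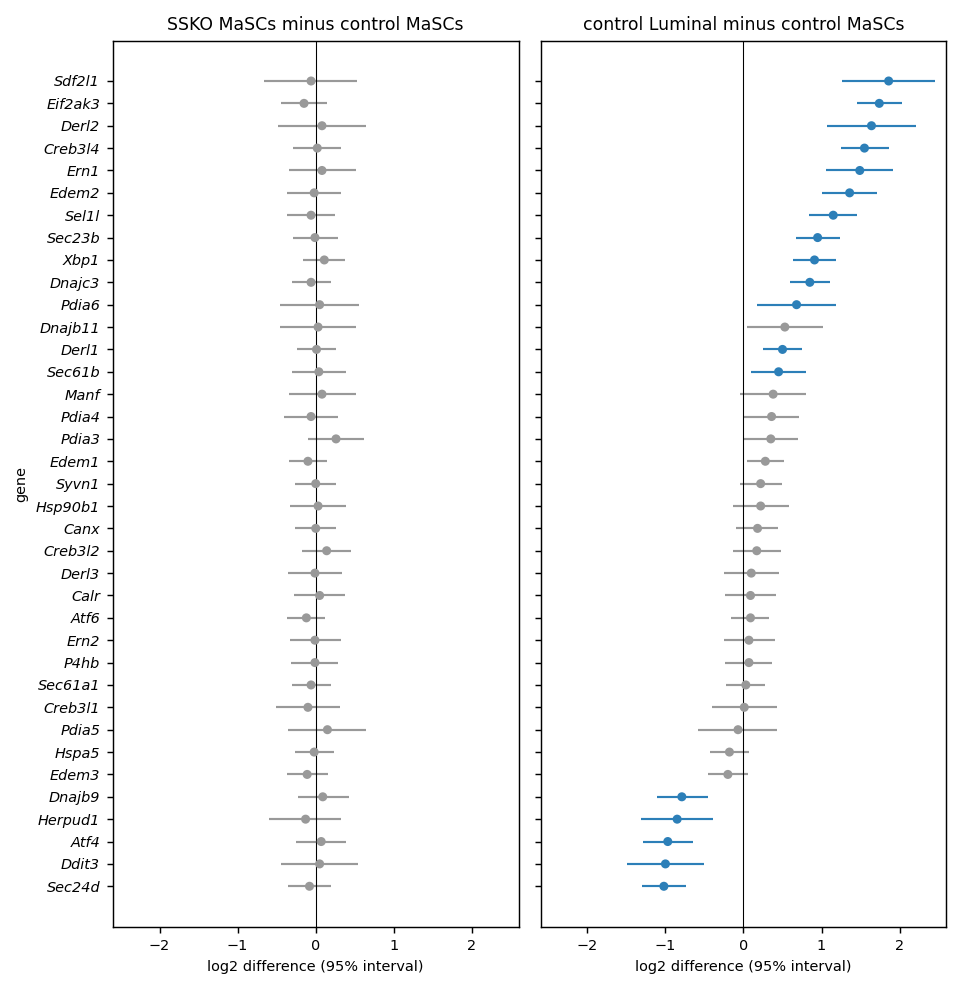
Log2 difference of each tested member with its 95% interval, SSKO minus control MaSCs in the left panel and control Luminal minus control MaSCs in the right panel, with blue points for members called at a limma adjusted p under 0.05. In the left panel no member is called and all points lie between -0.15 and 0.26; in the right panel 13 are called higher and 5 lower.

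Control Luminal cells were set against control MaSCs to ask how the 2 epithelial layers differ, with the same control arrays as above. Here members moved in both directions: 13 of the 37 were higher in Luminal cells (35.1%), 5 were lower (13.5%) and 19 were not called. The background was high, since 44.3% of all genes tested were called, 24.6% higher and 19.7% lower. The members' total of 48.6% is near that background and is not a result about the members as a set. Their median log2 difference was 0.22, against 0.07 over all genes. The share of all genes whose Luminal and control MaSC arrays do not overlap was not counted. Separation of the groups, where given below, is therefore not a result about the members. In these bulk samples, fewer cells of a type and less RNA per cell cannot be told apart.

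Among the 10 sensors and transcription factors, 4 were higher in Luminal cells, 2 were lower and 4 were not called. Eif2ak3, the PERK kinase, read 9.92, 9.61 and 9.8 in Luminal cells and 7.86, 7.91, 8.19 and 8.17 in control MaSCs. That is a log2 difference of 1.74 (SE 0.13, limma adjusted p = 1.22e-06), or 3.35-fold, and no arrays overlapped. Ern1, the IRE1 sensor that splices Xbp1 RNA, read 11.47, 12.18 and 12.39 in Luminal cells and 10.34, 10.57, 10.52 and 10.66 in control MaSCs (log2 difference 1.49, SE 0.19, limma adjusted p = 8.49e-05). Every Luminal array was again above every control MaSC array. Xbp1, the transcription factor made from that spliced RNA, read 12.55, 12.44 and 12.48 in Luminal cells and 11.67, 11.48, 11.53 and 11.63 in control MaSCs, 1.88-fold higher (limma adjusted p = 9.74e-05). The level covers Xbp1 RNA as a whole, and its splicing was not analysed here. Creb3l4, a membrane-bound factor of the ATF6 type, read 8.83, 9.14 and 8.58 in Luminal cells and 7.22, 7.3, 7.3 and 7.36 in control MaSCs, 2.93-fold higher (limma adjusted p = 4.4e-06).

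Atf4 and Ddit3, which act downstream of PERK, were lower in Luminal cells. Atf4, whose protein drives amino acid and stress genes, read 10.9, 10.67 and 11.14 in Luminal cells and 12.03, 11.91, 11.6 and 11.97 in control MaSCs, 1.96-fold lower (log2 difference -0.97, SE 0.15, limma adjusted p = 0.000242). Ddit3, which encodes the pro-apoptotic factor CHOP, read 7.15, 7.32 and 7.92 in Luminal cells and 8.51, 8.56, 8.0 and 8.76 in control MaSCs, 1.99-fold lower (log2 difference -1.0, SE 0.22, limma adjusted p = 0.00345). In neither gene did the groups overlap, although for Ddit3 the highest Luminal array lay just under the lowest control MaSC array. Atf6 read 11.4, 11.28 and 11.33 in Luminal cells and 11.11, 11.31, 11.33 and 11.26 in control MaSCs and was not called (log2 difference 0.09, limma adjusted p = 0.591). Creb3l2 (0.17), Creb3l1 (0.01) and the second IRE1 gene Ern2 (0.07) were not called either. ATF4 is regulated mainly through translation and ATF6 through cleavage, neither of which an RNA array measures.

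**Figure D3:**
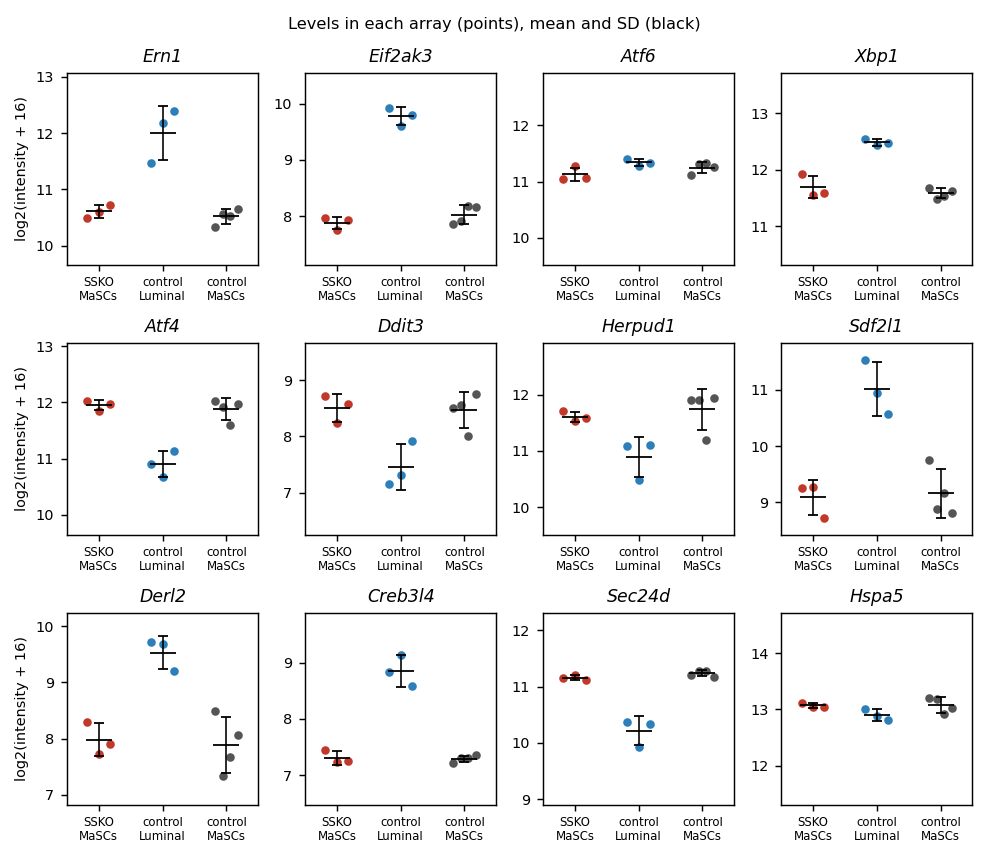
Levels, as log2(intensity + 16), of 12 members in each array (points) with the group mean and SD (black), for SSKO MaSCs, control Luminal and control MaSCs from left to right. Ern1, Eif2ak3 and Xbp1 are highest in Luminal arrays, Atf4 and Ddit3 are lowest there, and Atf6 and Hspa5 overlap between Luminal cells and control MaSCs.

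Of the 9 chaperones and co-chaperones, 2 were higher in Luminal cells, 1 was lower and 6 were not called. Sdf2l1, an endoplasmic reticulum protein that works beside BiP, differed most of all members. It read 11.53, 10.95 and 10.57 in Luminal cells and 9.76, 8.89, 9.16 and 8.82 in control MaSCs, 3.62-fold higher (log2 difference 1.86, SE 0.27, limma adjusted p = 0.000195). Dnajc3, a co-chaperone that also inhibits PERK, was 1.81-fold higher (log2 difference 0.85, SE 0.11). Dnajb9, a co-chaperone that restrains IRE1, was 1.72-fold lower (log2 difference -0.79, SE 0.15), averaging 10.88 ± 0.08 (SD, n = 3) in Luminal cells and 11.66 ± 0.19 (SD, n = 4) in control MaSCs.

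The major chaperones inside the compartment did not pass the test. Hspa5 averaged 12.9 ± 0.1 in Luminal cells (SD, n = 3) and 13.08 ± 0.14 in control MaSCs (SD, n = 4), a log2 difference of -0.18 with a 95% interval of -0.43 to 0.07. Hsp90b1, the GRP94 chaperone, differed by 0.22, and the lectin chaperones Calr and Canx differed by 0.09 and 0.18. Dnajb11, a BiP co-chaperone, differed by 0.53 (limma adjusted p = 0.0777) and Manf, a secreted stress protein, by 0.38 (limma adjusted p = 0.135). None of these 6 was called.

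Of the 5 disulfide isomerases tested, Pdia6 alone was higher, 1.6-fold (log2 difference 0.68, SE 0.23, limma adjusted p = 0.0326). Its levels were 11.74, 11.36 and 10.97 in Luminal cells and 11.25, 10.57, 10.39 and 10.52 in control MaSCs, so that it was the single called member whose groups overlapped, and the call was lost in 6 of 23 alternative settings. Pdia3, which read 12.26, 12.3 and 12.06 in Luminal cells and 12.3, 11.71, 11.6 and 11.83 in control MaSCs, differed by 0.35 (limma adjusted p = 0.109). Pdia4 differed by 0.36 (limma adjusted p = 0.0916), P4hb by 0.07 and Pdia5 by -0.07. Agr2, a secretory isomerase of mucous and luminal epithelium, was below the filter at 6.73, 6.74 and 8.15 in Luminal cells and 6.33, 6.26, 6.22 and 6.2 in control MaSCs, with 6.82, 6.55 and 6.25 in SSKO MaSCs. It was brightest in Luminal array 3, the array with more basal signal. With no filter its Luminal difference was 0.95 (SE 0.3, limma adjusted p = 0.0248). Luminal arrays 1 and 2 lay at about the filter cut of 6.74, and how far this difference rests on array 3 was not tested.

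The 9 genes of endoplasmic reticulum associated degradation, which returns misfolded proteins to the cytosol for the proteasome, gave 4 higher, 1 lower and 4 not called. Derl2, a channel component, read 9.72, 9.68 and 9.2 in Luminal cells and 8.49, 7.34, 7.67 and 8.07 in control MaSCs, 3.12-fold higher (log2 difference 1.64, SE 0.26, limma adjusted p = 0.000334). Control MaSCs spread widely for Derl2 but stayed below all Luminal arrays. Edem2, which starts mannose trimming, was 2.57-fold higher, the ligase adaptor Sel1l 2.22-fold and Derl1 1.42-fold. Sel1l's partner ligase Syvn1 differed by 0.22 (limma adjusted p = 0.161) and was not called, nor were Derl3 (0.10), Edem1 (0.28, limma adjusted p = 0.0558) and Edem3 (-0.20). Herpud1, a membrane adaptor of the ligase complex, read 11.08, 10.48 and 11.11 in Luminal cells and 11.91, 11.91, 11.19 and 11.95 in control MaSCs, 1.8-fold lower (log2 difference -0.85, SE 0.21, limma adjusted p = 0.00635). Control MaSC array 3 lay apart from the other 3 control arrays for Herpud1, close to the Luminal arrays.

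Of the 4 translocon and COPII vesicle coat genes, 2 were higher in Luminal cells, 1 was lower and 1 was not called. Sec24d, a cargo-binding coat subunit, read 10.38, 9.93 and 10.34 in Luminal cells and 11.21, 11.28, 11.28 and 11.17 in control MaSCs, 2.02-fold lower (log2 difference -1.02, SE 0.13, limma adjusted p = 6.37e-05). Its coat partner Sec23b was 1.94-fold higher in Luminal cells (log2 difference 0.95, SE 0.13). The groups did not overlap in either gene. In the translocon, Sec61b was 1.37-fold higher (limma adjusted p = 0.0379), a call lost in 10 of 23 alternative settings, and the channel gene Sec61a1 differed by 0.03 and was not called. The other 16 calls, those apart from Pdia6 and Sec61b, held in all alternative settings that gave them a value.

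ERSE in the promoter window can be set beside the Luminal differences. Of the 8 members with it, Dnajc3 and Pdia6 were higher, none was lower, and their median log2 difference was 0.20, within a range of -0.18 to 0.85. The 23 tested members with a window but no ERSE had a median of 0.36, with 10 higher and 5 lower, and ranged between -1.02 and 1.86. They include the carriers of ERSE-II, Herpud1 (-0.85, called lower) and Dnajb11 (0.53, not called). Over all genes tested, 24.6% were called higher and 19.7% lower, and the call of Pdia6 was lost in 6 of 23 alternative settings. The counts are a description of windows and levels. No test was made of them, and they are not a result about ERSE.

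**Figure D4:**
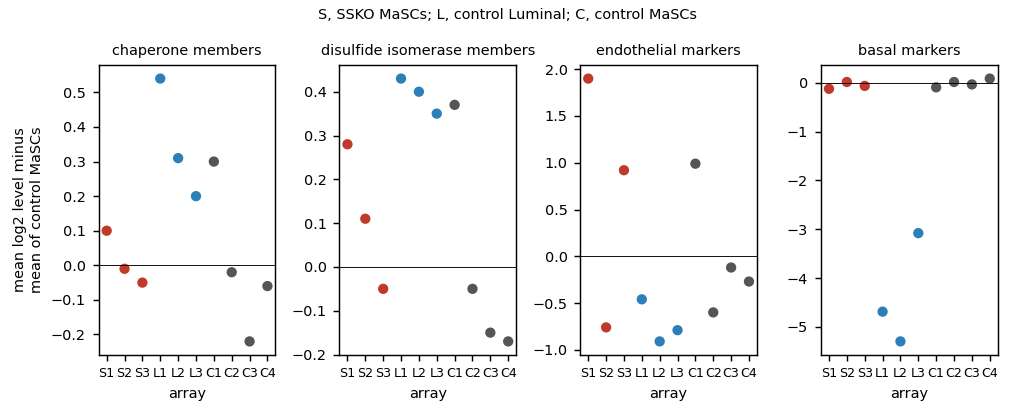
Mean level of the chaperone and the disulfide isomerase members in each array, and of the endothelial and basal marker lists, as the log2 difference from the control MaSC mean, for SSKO MaSCs, control Luminal and control MaSCs from left to right. Control MaSC array 1 stands highest of its group in the first 3 panels, and SSKO array 3 is bright for endothelial markers at 0.92 but is at -0.05 for chaperones.

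Within each group, most folding genes were highest in the same array. SSKO array 1 was the highest of 3 for 11 of the 14 tested chaperones and isomerases, Luminal array 1 the highest of 3 for 12, and control MaSC array 1 the highest of 4 for 12. The same share over all genes was not counted, so the pattern is not shown to be particular to folding genes. The upper quartile of all intensities was 763.78 in control MaSC array 1, against 695.81, 675.29 and 749.76 in the rest of its group. It was 738.45 in SSKO array 1, against 710.29 and 710.02, and 744.35 in Luminal array 1, against 751.87 and 774.88. The mean chaperone level, relative to the control MaSC mean, was 0.10, -0.01 and -0.05 in SSKO MaSCs, 0.54, 0.31 and 0.20 in Luminal cells and 0.30, -0.02, -0.22 and -0.06 in control MaSCs. The 6 isomerases, Agr2 included, read 0.28, 0.11 and -0.05 in SSKO MaSCs, 0.43, 0.40 and 0.35 in Luminal cells and 0.37, -0.05, -0.15 and -0.17 in control MaSCs. Control MaSC array 1 thus reached the Luminal range for both groups of genes. Endothelial markers on the same scale read 1.90, -0.76 and 0.92 in SSKO MaSCs, -0.46, -0.91 and -0.79 in Luminal cells and 0.99, -0.60, -0.12 and -0.27 in control MaSCs. Glycam1, a milk and endothelial gene, read 16.18, 7.45 and 15.25 in SSKO MaSCs, 7.66, 7.32 and 7.52 in Luminal cells and 14.16, 7.99, 7.56 and 7.7 in control MaSCs. The milk and alveolar list of 6 genes, Glycam1 included, read 0.99, -1.49 and -0.28 in SSKO MaSCs, 0.92, 1.11 and -0.23 in Luminal cells and 1.82, 0.04, -0.30 and -1.55 in control MaSCs, so array 1 was also the highest of both basal groups there. Of these 6 genes, 2 were called higher in Luminal cells and 4 were not called. The higher genes were Elf5 (log2 difference 2.75, limma adjusted p = 2.7e-06) and Csn3 (1.38, limma adjusted p = 0.00048). The part of these signals in the members' levels was not tested. Without control MaSC array 1, no member was called in SSKO MaSCs and 22 were called in Luminal cells, 17 higher and 5 lower; Hsp90b1, Dnajb11, Manf, Pdia3 and Pdia4 gained a call and Sec61b lost it.

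Markers of other cell types and of handling were read on the same arrays. Of 10 plasma cell and B cell markers, 9 were measured and 3 passed the filter, of which Prdm1 (log2 difference -4.05, limma adjusted p = 8.39e-05) and Sdc1 (-1.0, limma adjusted p = 7.75e-05) were lower in Luminal cells and Cd79b (0.03) was not called. Their list averaged between 7.34 and 7.69 per array in SSKO MaSCs, 6.85 and 6.96 in Luminal cells and 7.19 and 7.57 in control MaSCs. Prdm1 and Sdc1 are also known in epithelial cells, and the plasma cell gene Jchain was below the filter, averaging 6.14 in SSKO MaSCs, 5.93 in Luminal cells and 6.1 in control MaSCs. Of 6 other immune markers tested, 3 were lower in Luminal cells, namely the antigen presentation gene Cd74 (-2.44, limma adjusted p = 0.00156), the lysozyme gene Lyz2 (-1.22) and the macrophage gene Cd68 (-0.59). Prdm1, Cd74 and Lyz2 averaged 6.3, 6.56 and 6.32 in Luminal cells, under the filter cut of 6.74. These genes passed the filter only through their basal levels, so their calls support nothing here. The other immune list averaged between 7.56 and 7.82 per array in SSKO MaSCs, 6.89 and 7.14 in Luminal cells and 7.33 and 7.65 in control MaSCs. The pan-leukocyte gene Ptprc averaged 6.71 in SSKO MaSCs, 6.83 in Luminal cells and 6.84 in control MaSCs and was not called. None of these markers was called in SSKO MaSCs. All 8 fibroblast markers were lower in Luminal cells (median log2 difference -3.29), beside the 5 members that were lower there. Their mean level per array ran between 9.89 and 10.49 in SSKO MaSCs, 7.23 and 7.87 in Luminal cells and 10.14 and 11.5 in control MaSCs, where array 3 was the highest. Of 10 immediate early and dissociation genes, 3 were higher and 1 lower in Luminal cells, and none was called in SSKO MaSCs. The higher genes were Atf3, at a log2 difference of 0.85, Jun at 0.67 and Fos at 0.62. Atf3 is also counted among the further regulators below. The mean level of the 10 genes per array ran between 11.77 and 12.11 in SSKO MaSCs, 11.84 and 12.18 in Luminal cells and 11.65 and 12.19 in control MaSCs, ranges that overlap. The part of these lists in the members' differences was not tested.

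A wider list of 131 further genes of the same pathways placed the members in context, and 121 of them were tested. In SSKO MaSCs none was called, and only Clgn, a testis-enriched homologue of calnexin, was under 0.05 before adjustment (0.0405 in limma, adjusted p = 1, log2 difference 0.35, SE 0.15). In the other lists the smallest p belonged to Crebrf, Os9, Srp14 and Sec16b, with log2 differences of -0.24, -0.24, 0.40 and -0.30. In Luminal cells 58 were higher (47.9%) and 14 lower (11.6%), with a median log2 difference of 0.37, against 24.6% and 19.7% of all genes.

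Among 14 further regulators, 6 were higher and 2 lower. Bhlha15, the transcription factor MIST1 of secretory cells, differed by 1.84 and Wfs1, a calcium-handling membrane protein, by 1.16, on the log2 scale. Ppp1r15b, a phosphatase subunit that reverses PERK signalling, differed by -1.01 and Trib3, an ATF4 target, by -0.87. The groups overlapped for Trib3 and not for Ppp1r15b. Chac1, another ATF4 target, was not called and ranged widely, at 7.24, 6.65 and 9.64 in Luminal cells and 10.42, 9.71, 8.02 and 11.33 in control MaSCs. In the same list, Atf3 was called higher (log2 difference 0.85, limma adjusted p = 0.00253) and Asns was not called (-0.12, limma adjusted p = 0.788). Chac1, Atf3 and Asns are named after their values were seen.

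Among 24 further folding genes, 14 were higher and 4 lower. The BiP exchange factor Sil1 and the reductase Dnajc10 each differed by 1.14, while Fkbp7, a prolyl isomerase, differed by -3.11 and Uggt2, a glycoprotein folding sensor, by -1.56. The groups did not overlap for Sil1 (SE 0.13). For Dnajc10 (SE 0.34) they did, with 9.59 in Luminal array 3 and up to 9.96 in control MaSCs. Degradation gave 7 higher and 2 lower of 15, with the lectins Os9 (0.96) and Erlec1 (0.95) higher and the conjugating enzyme Ube2j1 (-0.79) and the ligase Rnf139 (-0.29) lower.

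Translocation, signal peptidase and glycosylation gave 16 higher and 2 lower of 31. Signal peptidase subunits Spcs2 (1.35) and Sec11c (1.34) led, and Tram2 (-0.63) and Ssr1 (-0.35), which assist the translocon, were lower. Vesicle coats and cargo receptors gave 15 higher and 4 lower of 37, with Tmed3, a cargo receptor, at 3.15, the retrieval receptor Kdelr3 at -1.86 and the coat subunit Copz2 at -1.22. Mia2, which helps to load large cargo and counts among the 15, averaged 8.33 in Luminal cells and 6.09 in control MaSCs, and passed the filter only through its Luminal level, so its call supports nothing here.

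**Figure D5:**
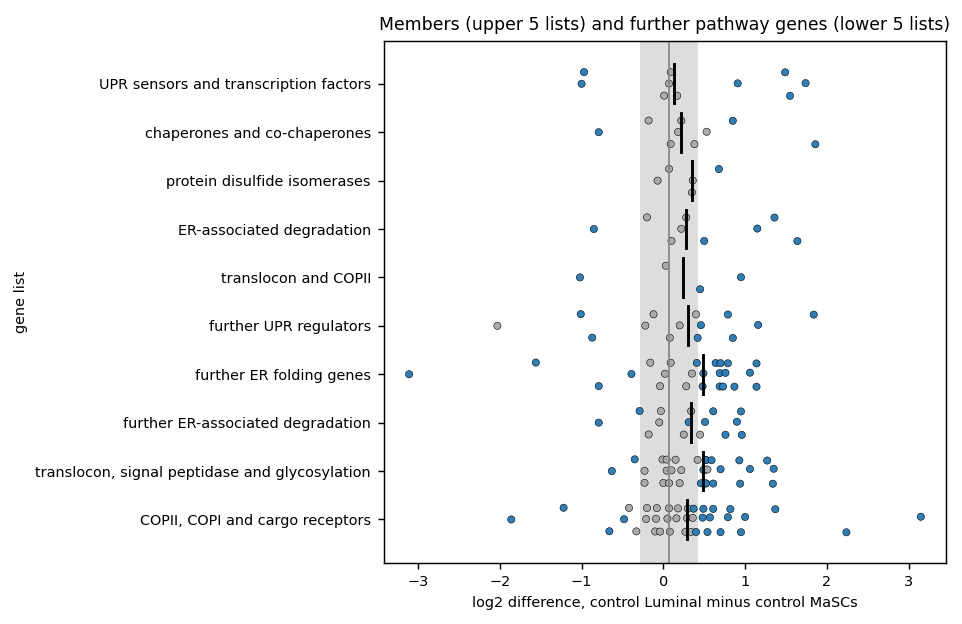
Log2 difference of control Luminal minus control MaSCs for every tested member and further pathway gene (points, 1 row per role group), in blue where called at a limma adjusted p under 0.05 and grey otherwise. A black line marks each row's median, the grey band the middle 50% of all genes tested (-0.29 to 0.43) and the grey line their median (0.07). Genes higher in Luminal cells outnumber those lower in each further list, by 58 to 14 in all, and the longest distances belong to Tmed3 at 3.15 and Fkbp7 at -3.11.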

How the data were processed

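The authors deposited linear intensities, with 1 value for each probe set in each array. Expression Console 1.1 and PLIER 2.0 are named in the submitters' processing notes. Between-array normalization and genome build are not given in the sources used here, and array medians lay between 205.47 and 228.45. Of 28815 probe sets, 21780 had 1 symbol in the platform annotation, 1605 had several and 5430 none. The 25% with the lowest mean were dropped (log2 mean under 6.74), and each gene took its brightest probe set. A fit of 3 group means to log2(intensity + 16) of 10 arrays used limma 3.58.1 (lmFit, eBayes) in R 4.3.3, with 7 residual degrees of freedom. Tests were two-sided, adjusted by Benjamini-Hochberg over 15815 genes and called under 0.05. The fit was tested on simulated data. The number of arrays limits the precision. Batches could not be examined from the labels.

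The members and lists were chosen with earlier results of these data known. Values in every array are given for the 4 members of smallest p in SSKO MaSCs, the 4 largest rises and 4 largest falls among calls in Luminal cells, and Xbp1, Atf4, Atf6, Ern1, Eif2ak3 and Ddit3. From each further list come the 2 largest rises, the 2 largest falls and the gene of smallest p in SSKO MaSCs. Hspa5, Agr2, Pdia6, Edem3, Chac1, Atf3 and Asns are shown besides. Promoters came from RefSeq (GRCm38.p6). Figures used matplotlib 3.10.9 in Python 3.11.15.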

Additional observations from a re-analysis of the deposited data

Results flagged for a closer look

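Of 38 members examined in the 4 control MaSC arrays, Herpud1 had an array far from the others: replicate 3 read 11.19 on the log2 scale, against 11.91 for the nearest and 11.95 for the highest of the other arrays. The gap was 0.942 of the whole range, past Dixon's 95% critical value for 4 samples. Groups of 3 arrays were not examined, and chance flags about 1 in 20 groups.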

How the results depend on the processing

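Every count was recomputed under 23 alternatives: pseudocounts, filters, quantile normalization, median centring, means over probe sets, 2-group fits, a replicate block, an endothelial covariate, array weights, trended and robust eBayes, and leaving out each array. The last one, without control MaSC array 1 and SSKO arrays 1 and 3, was chosen after seeing the data. No member and no further pathway gene was called in SSKO MaSCs under any of them. In Luminal cells, 16 to 22 members were called (16 to 22 leaving out 1 array) and 53 to 79 further genes (53 to 71 leaving out 1 array). Pdia3 passed the test in Luminal cells with the endothelial covariate (0.45), with array weights (0.41), without control MaSC array 1 (0.49) and without the 3 arrays (0.49). Dnajb11 gained a Luminal call in 5 of the 23 alternatives, Edem1, Pdia3 and Pdia4 in 4 each, Manf in 3 and Hsp90b1 in 1. Whether replicate numbers pair the samples is not given by the labels and was not settled by the data. Same-numbered deviations correlated at 0.63, 0.46 and 0.05 between SSKO and control MaSCs and at -0.08, -0.08 and -0.06 between Luminal cells and control MaSCs, and at 0.09, 0.03 and 0.18 between SSKO MaSCs and Luminal cells. SSKO array 3 correlated best with control MaSC array 4 (0.43). With the replicate block, 18 members and 68 further genes were called in Luminal cells and none in SSKO MaSCs. Over all genes, calls in SSKO MaSCs numbered 3 with quantile normalization, 5 with the block, between 1 and 27 leaving out 1 array (2 without control MaSC array 2, 27 without SSKO array 2, 1 without SSKO array 3) and 0 without the 3 arrays, against 6.

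Small uncalled differences in SSKO MaSCs changed sign, and the cause was not tested. Leaving out 1 array at a time, the log2 differences ran between -0.05 and 0.05 for Creb3l4, -0.11 and 0.18 for Ddit3, -0.10 and 0.28 for Derl2, -0.18 and 0.14 for Sdf2l1, -0.02 and 0.12 for Atf4, and -0.01 and 0.17 for Xbp1. Creb3l4 was at -0.04 with quantile normalization, -0.03 with centring, and 0 with the covariate and with array weights. Ddit3 was at 0 with centring and -0.03 with the covariate, and Derl2 at -0.14 with the covariate. Without the 3 arrays, Creb3l4 was at -0.08, Ddit3 at -0.21 and Sdf2l1 at 0.32. No detection calls were used, so dim levels carry no statement about absence.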
